A study of Homo sapiens with 3 samples.

Results

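Sphingolipid and ganglioside metabolism was described here by 37 genes, chosen by symbol among the 20344 genes of the deposited tables, and all 37 had a row. RNA was measured by mRNA sequencing in A375, a human melanoma line with mutant BRAF, in a study that concerns propranolol, a blocker of beta-adrenergic receptors, and resistance to the BRAF inhibitor vemurafenib. Of 3 samples, 2 were used, with 1 library each: one titled A375-VR, Prop, called the A375-VR library, and one titled A375, Prop, called the A375 library. The remaining sample, A375-VR, DMSO, was not analysed here. Prop was read as propranolol from the extraction protocol, which gives 20 µM for 24 h, or DMSO, and names A375-VR cells for every sample. For the A375 library, however, both its title and its label for the line name A375, so the labels do not settle which cells and treatment it holds. Cell line, drug, culture and library preparation cannot be told apart in the difference between these libraries, and how the A375-VR line was made, or whether it is 1 clone, is not given in the sources used here.

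Sphingolipids are built on a backbone made from serine and a fatty acyl-CoA in the endoplasmic reticulum. Ceramide, the hub of the pathway, is turned into sphingomyelin, into glucosylceramide and the gangliosides and globosides beyond it, or into ceramide 1-phosphate. It is also broken down to sphingosine, whose phosphorylated form is a signalling lipid. Melanoma cells are known for abundant gangliosides, in particular the mono- and disialylated forms GM3 and GD3.

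Values are FPKM, fragments scaled to gene length and library size, so ratios and shares between genes depend on the lengths used. The totals behind the scaling were worked out as 16438482 in the A375-VR library and 17811339 in the A375 library. The smallest whole read numbers and gene lengths that give each FPKM were recovered. For 52.8% of genes past the filter given below, this length was within 2% of all annotated exon bases together, which can exceed 1 transcript. A difference is log2(FPKM + 1) of the A375-VR library minus that of the A375 library, taken for genes that reached 1 FPKM in either library. A fold is the plain ratio of FPKM, with its 95% exact Clopper-Pearson interval from the recovered reads, and covers counting error only. With 1 library per group there was no replicate check and no test. Among all 10761 genes past the filter the median fold was 1.08 and the median difference 0.10, so folds near 1.1 lie close to the middle of all genes.

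Of the 37 genes, 30 passed the filter, and 23 of these had a higher level in the A375-VR library (76.7%, against 60.3% of all genes past the filter). With the trimmed mean of log ratios as scaling, 19 had a higher level and 11 a lower one. The largest differences were those of 3 glycosphingolipid enzymes, 1 ceramide synthase, 1 ceramidase and 1 sphingosine kinase, all higher in the A375-VR library. A difference of at least 1, called 2-fold, was reached upward by CERS4 alone (3.33% of the 30, against 3.14% of all genes) and downward by none (against 0.613%). A lower level was found for 7 of the 30 (23.3%, against 39.7% of all genes). With the limit at 1.5-fold, a difference of 0.585, there were 6 genes higher (20%, against 11.6%) and none lower (against 4.21%). These were CERS4, ST3GAL5, B4GALT5, SPHK1, ACER2 and B4GALNT1. Of these, CERS4, ST3GAL5 and ACER2 passed the filter through the A375-VR library alone, where they are high. With the filter at FPKM 5, 2 of 19 genes were 1.5-fold higher, against 10.9% of all genes past that filter. The median difference of the 30 was 0.13, beside 0.10 for all genes. After scaling by the trimmed mean these medians were 0.04 and 0.00, and 5 genes were 1.5-fold higher, against 8.43% of all genes, with 7.06% lower. The split of all genes 2-fold apart was 338 higher and 66 lower (83.7% higher) as deposited, and 272 higher and 101 lower (72.9% higher) after the trimmed mean.

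**Figure D1:**
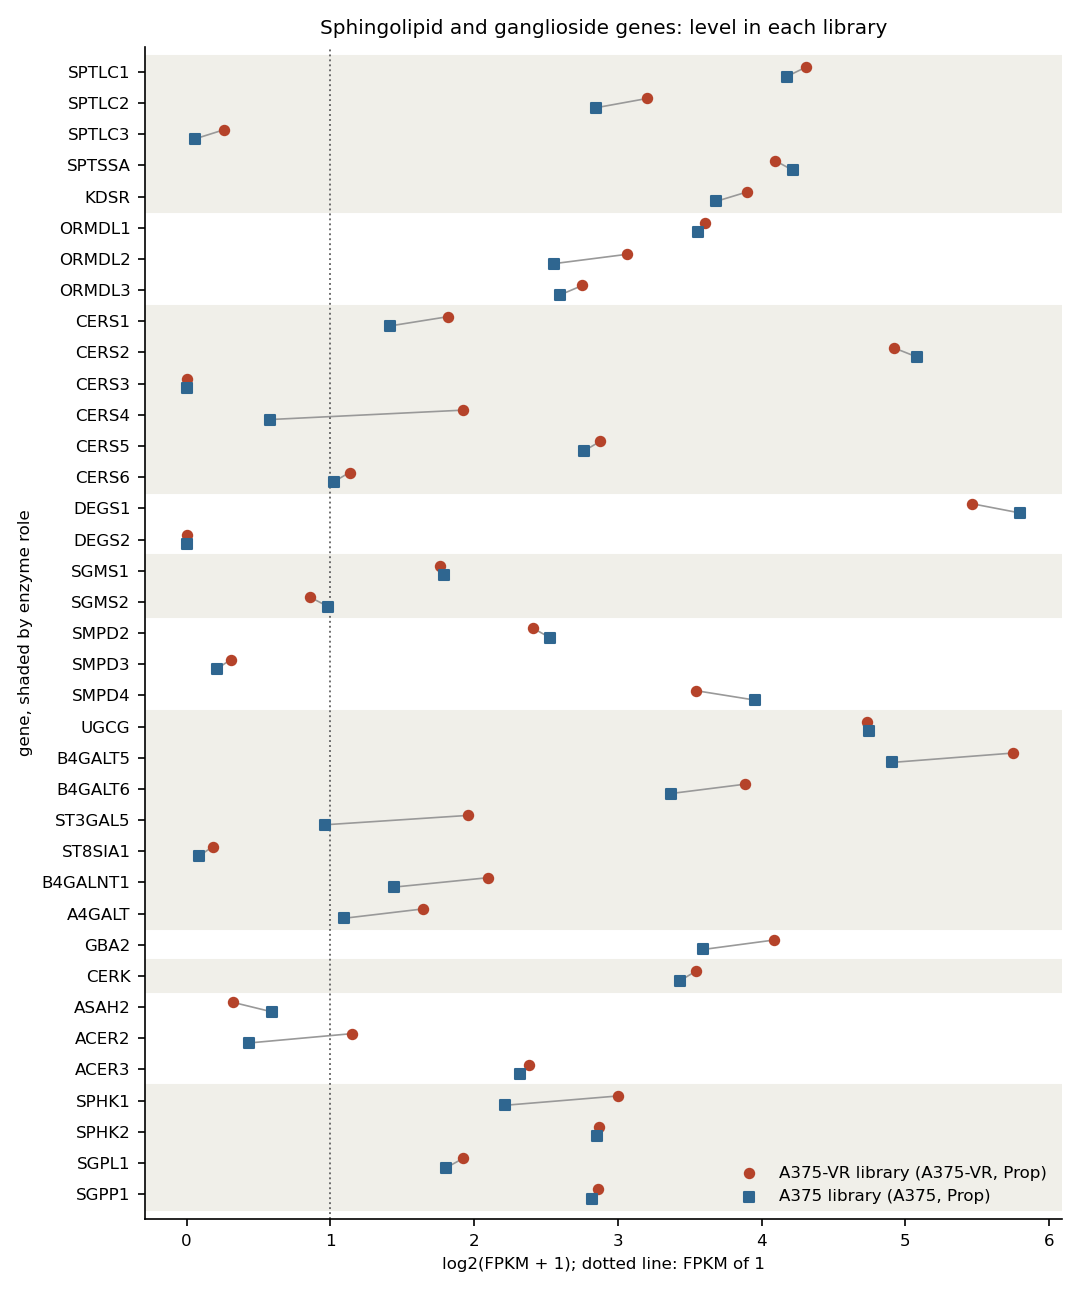
Level of each of the 37 genes as log2(FPKM + 1), in the A375-VR library (circles, upper) and the A375 library (squares, lower), shaded by role, with a dotted line at an FPKM of 1. DEGS1, CERS2, UGCG and B4GALT5 are the most abundant in both libraries, and CERS3 and DEGS2 are at 0 in both.

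The enzymes of backbone synthesis differed little between the libraries. Serine palmitoyltransferase, which condenses serine with palmitoyl-CoA, is formed by SPTLC1 with SPTLC2 or SPTLC3 and a small activating subunit. SPTLC1 had 18.8 FPKM in the A375-VR library and 17.0 in the A375 library, a fold of 1.10 (1.03 to 1.17). SPTLC2, the catalytic partner, had 8.22 FPKM in the A375-VR library and 6.19 in the A375 library, a fold of 1.33 (1.22 to 1.44). The alternative partner SPTLC3 rested on 14 reads in the A375-VR library and 3 in the A375 library, at 0.200 and 0.0395 FPKM, and did not pass the filter. The large subunits were thus SPTLC1 and SPTLC2 in both libraries, and SPTLC2 had 0.437 of the FPKM of SPTLC1 in the A375-VR library and 0.363 in the A375 library. SPTSSA, the small subunit, had 16.1 FPKM in the A375-VR library and 17.6 in the A375 library, a fold of 0.916 (0.830 to 1.01). KDSR, the reductase of the next step, had 13.9 and 11.9 FPKM in the A375-VR and A375 libraries, a fold of 1.17 (1.10 to 1.25). None of the 4 genes past the filter reached 1.5-fold, and their median difference was 0.17.

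The ORMDL proteins sit in the membrane of the endoplasmic reticulum and restrain serine palmitoyltransferase when ceramide is plentiful. ORMDL2 had the largest difference of the 3, with 7.36 FPKM in the A375-VR library and 4.88 in the A375 library, a fold of 1.51 (1.19 to 1.92). It did not reach 1.5-fold on the scale with the pseudocount, where the difference was 0.51. DNAJC14 on the opposite strand overlaps 34.2% of its annotated exon bases, with 4.37 FPKM in the A375-VR library and 3.75 in the A375 library, and whether the authors counted by strand is not given in the sources used here. ORMDL1 had 11.2 and 10.8 FPKM in the A375-VR and A375 libraries, and ORMDL3 had 5.74 and 5.06. Intervals of both held 1, and ORMDL1, at a difference of 0.05, was at -0.06 with the trimmed mean. ORMDL1 was in both libraries the most abundant of the family, with 46.1% of its FPKM sum in the A375-VR library and 52.1% in the A375 library.

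Among the ceramide synthases, which join a fatty acid to the backbone and differ in the chain length they prefer, the sum of FPKM was nearly equal in both libraries, while its make-up was not. The 6 genes summed to 42.1 FPKM in the A375-VR library and 41.9 in the A375 library. CERS4 (Entrez 79603, chromosome 19 at 8271620 to 8327305 on the plus strand of GRCh37), which makes ceramides with long acyl chains, had 2.79 FPKM in the A375-VR library and 0.498 in the A375 library. Its fold was 5.60 (2.99 to 11.4), resting on 62 and 12 reads, and its difference of 1.34 was the largest of the 30 genes. The annotated exons of CERS4 are exactly 3 times as long as its recovered length, and with reads multiplied accordingly, 186 and 36, the interval was 3.90 to 8.24. CERS2, the synthase of very-long-chain ceramides, was the most abundant in both libraries, at 29.3 FPKM in the A375-VR library and 32.9 in the A375 library, a fold of 0.889 (0.840 to 0.940). SETDB1 on the opposite strand overlaps 20.4% of its exon bases, at 6.31 FPKM in the A375-VR library and 6.53 in the A375 library.

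CERS2 held 69.5% of the family's FPKM sum in the A375-VR library and 78.5% in the A375 library. CERS4 held 6.62% in the A375-VR library and 1.19% in the A375 library, so that CERS2 had 10.5 times the FPKM of CERS4 in the A375-VR library and 66.1 times in the A375 library. The palmitoyl-preferring synthases CERS5 and CERS6 kept similar places. CERS5 had 6.35 and 5.81 FPKM in the A375-VR and A375 libraries, and CERS6 had 1.19 and 1.03, with intervals that held 1. CERS6-AS1, a long non-coding RNA on the opposite strand, overlaps 43.8% of the exon bases of CERS6, so its values near 1 FPKM are uncertain. CERS1, a synthase best known from brain and muscle, had 2.53 FPKM in the A375-VR library and 1.66 in the A375 library, a fold of 1.52 (0.980 to 2.39) from 52 and 37 reads. The recovered length of CERS1 was 33.2% of its annotated exons, so its true reads may be more and the interval, which held 1, too wide. CERS1 shares 68.5% of its exon bases with GDF1 on the same strand, which is listed at 0 in both libraries, so the CERS1 values are uncertain. CERS3, the synthase of the ultra-long ceramides of the skin barrier, is listed at 0 in both.

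**Figure D2:**
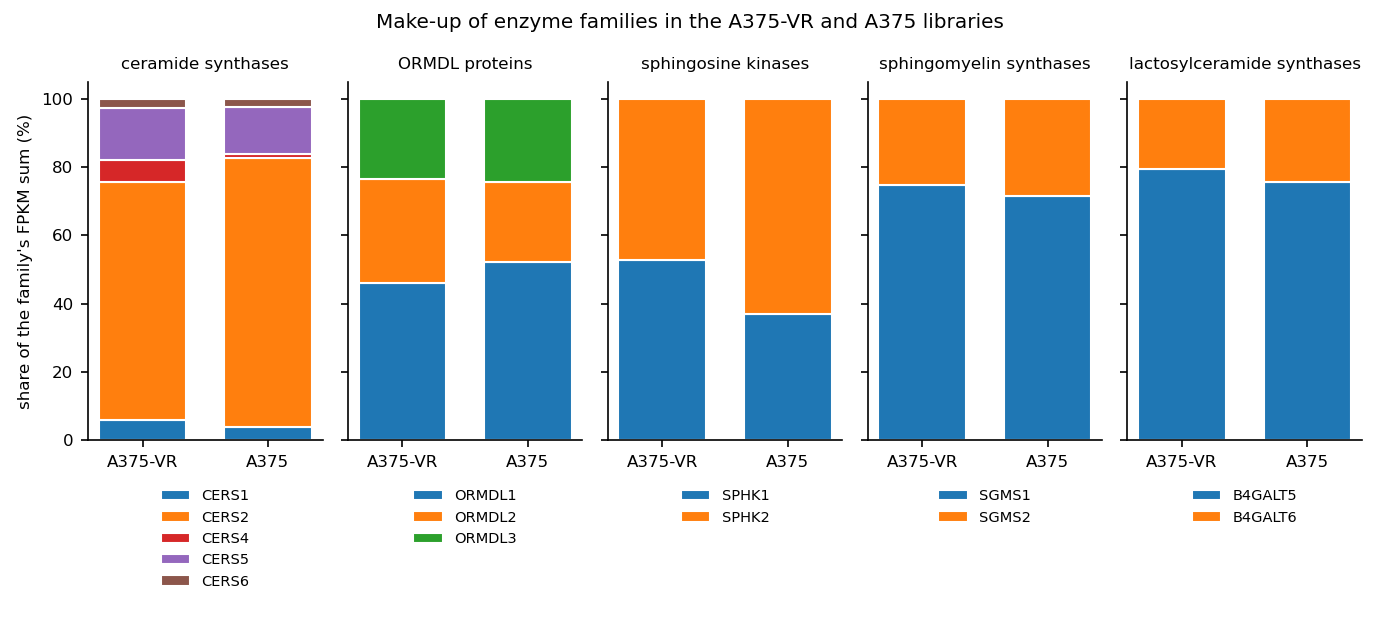
Share of each gene in the FPKM sum of its enzyme family, in percent, with the A375-VR library on the left and the A375 library on the right of each panel. CERS4 takes 6.62% against 1.19% of the ceramide synthases, and SPHK1 52.7% against 36.8% of the sphingosine kinases, in the A375-VR library against the A375 library.

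DEGS1, which sets the double bond that turns dihydroceramide into ceramide, was the most abundant of the 37 genes in the A375 library. Its level was 43.1 FPKM in the A375-VR library and 54.7 in the A375 library, a fold of 0.787 (0.685 to 0.904). The recovered length of DEGS1 was 20.6% of its annotated exons, so its true reads may be several times the 356 and 490 recovered, and the interval may be too wide. The ratio of DEGS1 to SPTLC2, that is of the last to the first step, was 5.24 in the A375-VR library and 8.84 in the A375 library. DEGS2, a relative that makes hydroxylated phytoceramides, is listed at 0 in both libraries.

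Of the sphingomyelin synthases and neutral sphingomyelinases, the 3 genes past the filter had differences between -0.41 and -0.03. SGMS1, the sphingomyelin synthase of the Golgi, had 2.39 FPKM in the A375-VR library and 2.45 in the A375 library, a fold of 0.976 (0.820 to 1.16). SGMS2, its plasma membrane relative, had 0.813 and 0.978 FPKM in the A375-VR and A375 libraries and did not pass the filter. Neutral sphingomyelinases release ceramide from sphingomyelin outside the lysosome. SMPD4 had the lowest difference of the 30 genes, -0.41, with 10.7 FPKM in the A375-VR library and 14.5 in the A375 library, a fold of 0.737 (0.686 to 0.792). MZT2B on the opposite strand overlaps 5.66% of its exon bases. SMPD2 had 4.32 and 4.77 FPKM in the A375-VR and A375 libraries, with an interval that held 1 and 21.8% of its exon bases shared with PPIL6 on the opposite strand. SMPD3 was below the filter at 0.238 FPKM in the A375-VR library and 0.157 in the A375 library. PRMT7 on the opposite strand overlaps 27.65% of the SMPD3 exon bases. CERK, which phosphorylates ceramide, had 10.6 FPKM in the A375-VR library and 9.80 in the A375 library, a fold of 1.09 (0.948 to 1.24).

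Of the 7 genes of glycosphingolipid synthesis 6 passed the filter, and 5 of these had a higher level in the A375-VR library (83.3%, against 60.3% of all genes). Of the 6, 3 were 1.5-fold higher (50%, against 11.6% of all genes), ST3GAL5, B4GALT5 and B4GALNT1, and 2 with the trimmed mean. Their median difference was 0.60 (0.52 with the trimmed mean). The gene past the filter that was not higher encodes the entry enzyme. UGCG, which adds glucose to ceramide, had 25.6 FPKM in the A375-VR library and 25.8 in the A375 library, a fold of 0.991 (0.931 to 1.05). It stood at 7.97 times the summed FPKM of both sphingomyelin synthases in the A375-VR library and at 7.52 times in the A375 library.

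Lactosylceramide, the next product, is made by B4GALT5 and B4GALT6. B4GALT5 (Entrez 9334, chromosome 20 at 48249482 to 48330415 on the minus strand) had 52.7 FPKM in the A375-VR library and 29.1 in the A375 library, a fold of 1.82 (1.69 to 1.95). B4GALT6 had 13.7 FPKM in the A375-VR library and 9.31 in the A375 library, a fold of 1.48 (1.35 to 1.61). Their sum was 66.5 FPKM in the A375-VR library and 38.4 in the A375 library, and B4GALT5 held 79.3% and 75.7% of it. B4GALT5 had 2.06 times the FPKM of UGCG in the A375-VR library and 1.13 times in the A375 library.

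Lactosylceramide is the branch point of the complex series. ST3GAL5 (Entrez 8869, chromosome 2 at 86064243 to 86132322 on the minus strand), which adds the first sialic acid and makes GM3, had 2.89 FPKM in the A375-VR library and 0.953 in the A375 library. This is a fold of 3.03 (2.64 to 3.49) from 774 and 277 reads, and its difference of 0.99 lies just under the 2-fold limit. It passed the filter through the A375-VR library alone. ST3GAL5 reached 0.113 of the FPKM of UGCG in the A375-VR library and 0.0369 in the A375 library. A4GALT, which starts the globosides from the same substrate, had 2.12 FPKM in the A375-VR library and 1.14 in the A375 library, a fold of 1.87 (1.38 to 2.55), with a difference of 0.55. CYB5R3 on the same strand shares 2.20% of the A4GALT exon bases, at 28.1 FPKM in the A375-VR library and 24.7 in the A375 library. Its part in the A4GALT reads is not known. In FPKM, ST3GAL5 was above A4GALT in the A375-VR library, at 1.36 times, and below it in the A375 library, at 0.838 times. This order depends on the recovered lengths, 16318 bases for ST3GAL5 and 3407 for A4GALT. ST3GAL5 had more reads in both, 774 against 119 in the A375-VR library and 277 against 69 in the A375 library.

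B4GALNT1 (Entrez 2583, chromosome 12 at 58017192 to 58027022 on the minus strand), the synthase of GM2 and GD2, had 3.27 FPKM in the A375-VR library and 1.72 in the A375 library, a fold of 1.90 (1.62 to 2.23). With the trimmed mean its difference of 0.65 became 0.56, below the 1.5-fold limit. An unnamed protein-coding gene on the opposite strand overlaps 11.0% of the exon bases of B4GALNT1. ST8SIA1, the GD3 synthase, was near 0 in both libraries, at 0.134 FPKM from 32 reads in the A375-VR library and 0.0620 FPKM from 16 reads in the A375 library, and did not pass the filter. Its plain fold of 2.17 (1.15 to 4.23) rests on those reads. GBA2, which removes glucose from glucosylceramide outside the lysosome, had 15.9 FPKM in the A375-VR library and 11.1 in the A375 library, a fold of 1.44 (1.32 to 1.57).

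**Figure D3:**
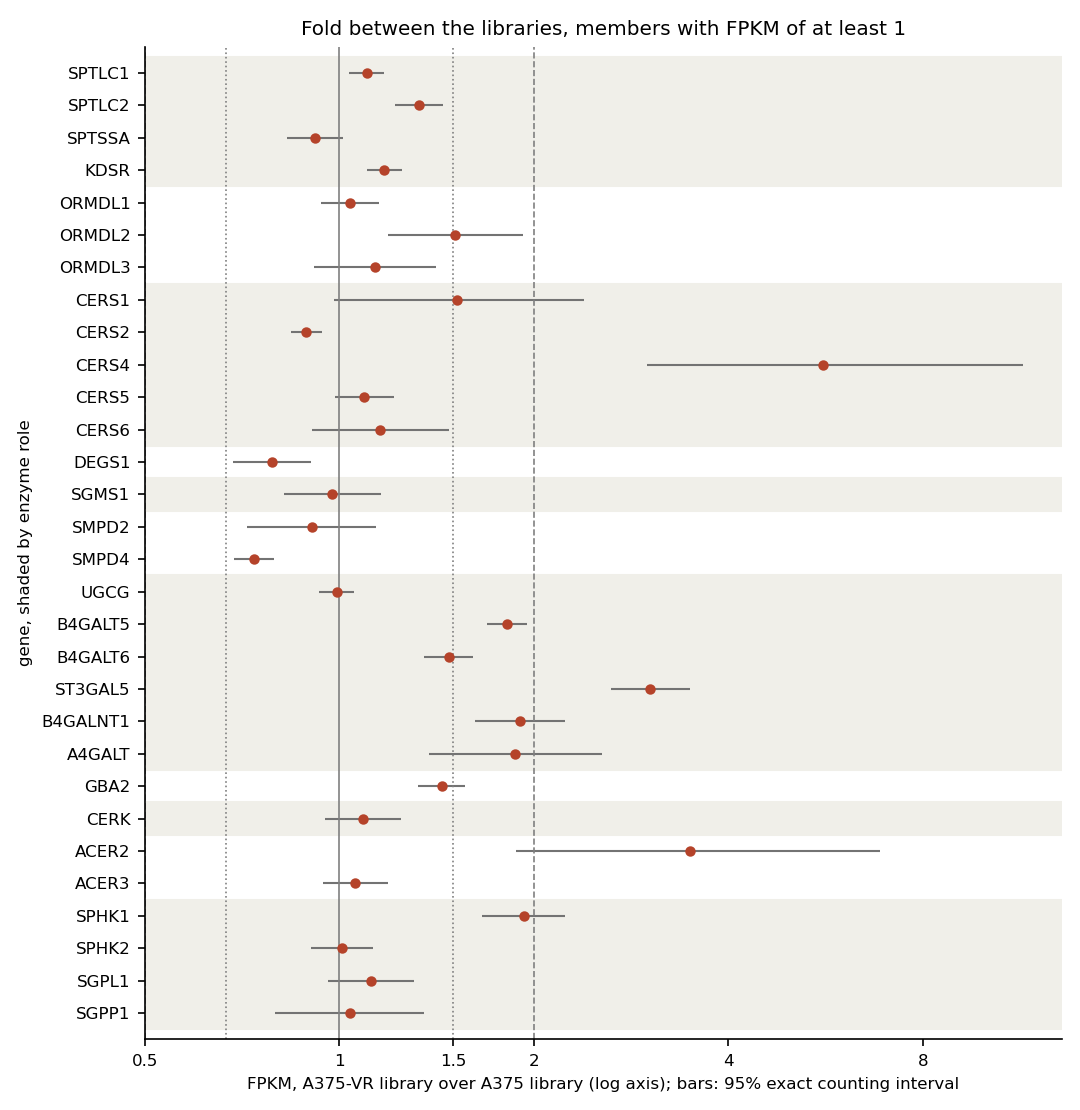
FPKM of the A375-VR library over that of the A375 library for the 30 genes past the filter, on a log axis, with 95% exact counting intervals as bars and lines at 1, at 1.5-fold (dotted) and at 2-fold (dashed). ST3GAL5 at 3.03 and CERS4 at 5.60 have intervals wholly above 2, and UGCG at 0.991 sits on 1.

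Promoter sequences, from RefSeq on GRCh38.p14 and so on another build than the gene positions above, were at hand for 29 of the 37 genes, in 48 windows. Each window runs from 250 bases before to 50 bases after a transcript start. Those of ST3GAL5 (chr2:85888941-85889240, minus strand) and B4GALT5 (chr20:49713829-49714128, minus strand) are shown because these genes were among the 6 that were 1.5-fold higher, and that of UGCG (chr9:111896564-111896863, plus strand) because the enzyme between ceramide and their substrates was not. Where a gene has several windows the one listed first is shown. Capitals mark a full match to the cAMP response element TGACGTCA, the AP-1 site TGACTCA, the E-box CACGTG or the sterol response element of the LDL receptor gene, searched on both strands, and marked matches do not overlap.
ST3GAL5: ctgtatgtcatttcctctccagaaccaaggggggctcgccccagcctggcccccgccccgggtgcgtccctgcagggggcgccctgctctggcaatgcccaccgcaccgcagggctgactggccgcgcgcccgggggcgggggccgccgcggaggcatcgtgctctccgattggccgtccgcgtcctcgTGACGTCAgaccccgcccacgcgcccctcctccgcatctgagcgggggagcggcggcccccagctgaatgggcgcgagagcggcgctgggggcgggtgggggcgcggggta
B4GALT5: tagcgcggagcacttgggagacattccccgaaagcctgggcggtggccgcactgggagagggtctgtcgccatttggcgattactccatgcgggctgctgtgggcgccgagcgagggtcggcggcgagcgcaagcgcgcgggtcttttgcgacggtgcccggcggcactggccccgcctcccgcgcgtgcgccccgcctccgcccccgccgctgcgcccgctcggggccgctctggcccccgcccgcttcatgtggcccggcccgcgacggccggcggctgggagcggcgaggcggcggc
UGCG: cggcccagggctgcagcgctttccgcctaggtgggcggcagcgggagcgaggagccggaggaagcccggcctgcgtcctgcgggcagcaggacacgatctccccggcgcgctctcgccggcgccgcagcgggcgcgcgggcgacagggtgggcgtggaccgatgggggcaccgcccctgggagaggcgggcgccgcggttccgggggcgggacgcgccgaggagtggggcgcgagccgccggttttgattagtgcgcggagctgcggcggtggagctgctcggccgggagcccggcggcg

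The ST3GAL5 window holds 1 cAMP response element, whose first base lies 61 bases before the start. This motif is in 1.85% of all 35116 windows searched, and among the 48 windows of these genes in 2, both of ST3GAL5. The windows of B4GALT5 and UGCG hold none of the 4 marked motifs. The E-box, in 7.26% of all windows, and the sterol response element, in 0.0456%, were found in none of the 48. GC boxes (GGGCGG) were common, in 36 of the 48 windows (75%, against 45.0% of all), with 4 matches in the window of ST3GAL5 and 3 in each of those of B4GALT5 and UGCG. A match describes letters and not binding.

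Among the enzymes of ceramide breakdown and sphingosine 1-phosphate metabolism past the filter, ACER2 and SPHK1 reached 1.5-fold. ACER2 (Entrez 340485, chromosome 9 at 19409007 to 19452503 on the plus strand), the alkaline ceramidase of the Golgi, had 1.22 FPKM in the A375-VR library and 0.351 in the A375 library. The fold of 3.48 (1.88 to 6.87) rests on 45 and 14 reads, and ACER2 passed the filter through the A375-VR library alone, as CERS4 and ST3GAL5 did. ACER3, the alkaline ceramidase of the endoplasmic reticulum and Golgi, had 4.22 FPKM in the A375-VR library and 3.98 in the A375 library, a fold of 1.06 (0.943 to 1.19), and was at -0.03 with the trimmed mean. ACER3 was 3.45 times as abundant as ACER2 in the A375-VR library and 11.3 times in the A375 library. ASAH2, the neutral ceramidase of the cell surface, was below the filter with 0.253 and 0.506 FPKM in the A375-VR and A375 libraries, from 29 and 63 reads. Its plain fold was 0.499 (0.310 to 0.786), opposite in direction to that of ACER2, and near-identical partial copies in the genome make its value uncertain.

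SPHK1 (Entrez 8877, chromosome 17 at 74372665 to 74383941 on the plus strand), which phosphorylates sphingosine in the cytosol and at the plasma membrane, had 7.01 FPKM in the A375-VR library and 3.64 in the A375 library. Its fold was 1.93 (1.67 to 2.24), from 509 and 286 reads. SPHK2, its nuclear and mitochondrial relative, had 6.30 FPKM in the A375-VR library and 6.23 in the A375 library, a fold of 1.01 (0.904 to 1.13), and its difference of 0.01 was -0.09 with the trimmed mean. DBP on the opposite strand overlaps 11.0% of its exon bases. SPHK1 had 52.7% of the FPKM sum of the kinases in the A375-VR library and 36.8% in the A375 library. Which kinase is above the other in the A375-VR library depends on the lengths used, 4416 bases for SPHK1 and 6009 for SPHK2. There SPHK1 had fewer reads, 509 against 622. The enzymes that remove sphingosine 1-phosphate differed by less than counting error. SGPL1, the lyase that ends the pathway, had 2.80 FPKM in the A375-VR library and 2.50 in the A375 library, a fold of 1.12 (0.960 to 1.31). SGPP1, a phosphatase that returns sphingosine, had 6.28 and 6.05 FPKM in the A375-VR and A375 libraries, a fold of 1.04 (0.796 to 1.35), and was at -0.05 with the trimmed mean.

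The first windows of SPHK1 (chr17:76382954-76383253, plus strand) and ACER2 (chr9:19408759-19409058, plus strand) are shown with the same marking, because these are the remaining genes 1.5-fold higher for which a window was at hand.
SPHK1: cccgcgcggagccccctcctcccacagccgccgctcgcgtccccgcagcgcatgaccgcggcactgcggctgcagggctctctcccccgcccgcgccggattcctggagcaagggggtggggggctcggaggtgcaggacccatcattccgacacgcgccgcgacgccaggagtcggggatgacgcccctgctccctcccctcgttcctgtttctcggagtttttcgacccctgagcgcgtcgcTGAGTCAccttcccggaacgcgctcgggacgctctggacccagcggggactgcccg
ACER2: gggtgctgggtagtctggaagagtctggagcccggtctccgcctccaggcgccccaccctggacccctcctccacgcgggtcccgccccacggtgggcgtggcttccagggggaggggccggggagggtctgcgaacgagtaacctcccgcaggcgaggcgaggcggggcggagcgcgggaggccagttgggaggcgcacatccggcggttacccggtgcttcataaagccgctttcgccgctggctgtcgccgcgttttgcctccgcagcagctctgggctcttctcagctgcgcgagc
That of SPHK1 holds 1 AP-1 site, on the other strand, whose first base lies 6 bases before the start, so that it spans the start. AP-1 sites are in 4.95% of all windows, and in 3 of the 48 windows of these genes (6.25%), which belong to SPHK1 and SGMS2. None of the marked motifs is in the window of ACER2.

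Of the 30 genes, 13 had an interval wholly above 1 (43.3%, against 43.6% of all genes past the filter) and 3 wholly below (10%, against 26.4%) (CERS2, DEGS1 and SMPD4). These intervals compare a pair of libraries and not conditions. The 7 genes that did not pass the filter were SPTLC3, CERS3, DEGS2, SGMS2, SMPD3, ST8SIA1 and ASAH2, all under 1 FPKM in both libraries.

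**Figure D4:**
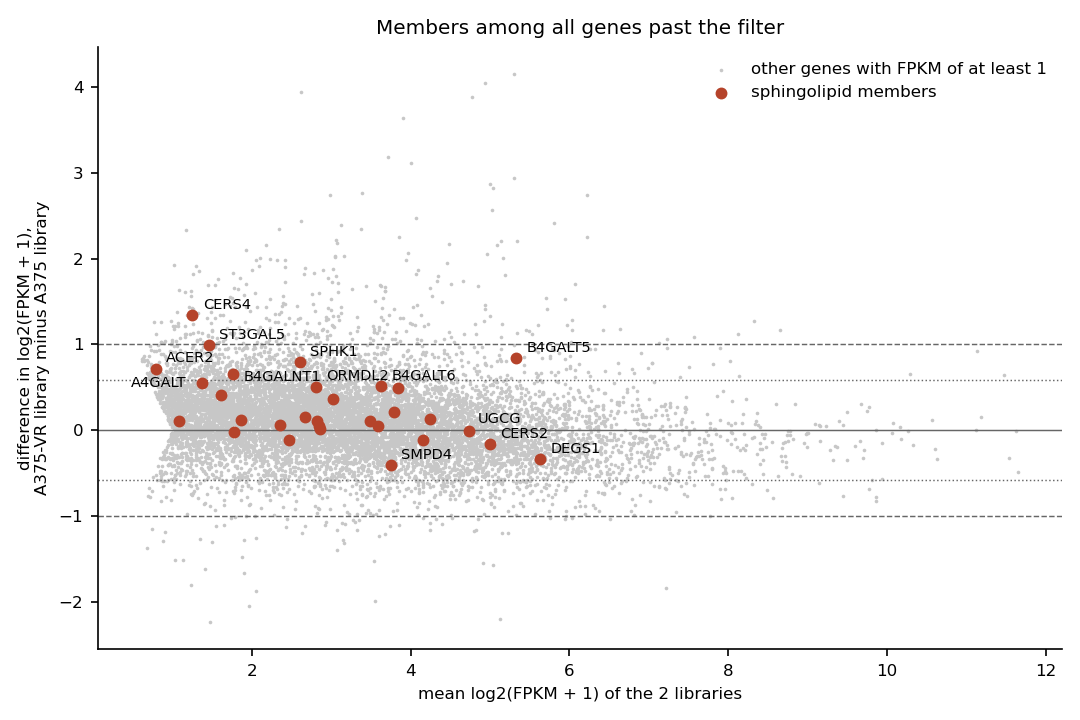
Difference in log2(FPKM + 1), A375-VR library minus A375 library, against the mean log2(FPKM + 1) of both, for the 30 genes (red) and the other genes past the filter (grey), with lines at 0, 1.5-fold (dotted) and 2-fold (dashed). The genes lie between -0.41 (SMPD4) and 1.34 (CERS4), inside the spread of all genes from -2.23 to 4.15.

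Genes of the same pathway outside the 37 were taken from 6 lists. Of the lysosomal hydrolases and activators, which take sphingolipids apart, 12 of 12 had a higher level in the A375-VR library (11 with the trimmed mean, where GLA was lower), with 7 of them 1.5-fold (58.3%, against 11.6% of all genes, of which 60.3% had a higher level) and a median of 0.59 (0.48 with the trimmed mean). NEU1, a sialidase, was 3.16-fold higher (2.85 to 3.50), PSAP, the precursor of the saposins, 2.14-fold (2.08 to 2.20), and SMPD1, acid sphingomyelinase, 1.99-fold (1.73 to 2.29). ASAH1, acid ceramidase, had 4.35 FPKM in the A375-VR library and 2.53 in the A375 library. The 30 genes described above, outside the lysosome, had 6 of 30 at 1.5-fold, and no test of that contrast was made.

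Among lipid transfer proteins 4 of 4 had a higher level in the A375-VR library (against 60.3% of all genes, and 3 with the trimmed mean, where GLTP was lower), with a median of 0.33, led by COL4A3BP. This gene encodes the protein that carries ceramide to the Golgi for sphingomyelin synthesis, and had 5.31 FPKM in the A375-VR library and 2.35 in the A375 library, a fold of 2.26 (2.07 to 2.47). CPTP, which carries ceramide 1-phosphate, was 1.42-fold higher (1.27 to 1.58), and GLTP and PLEKHA8, which carry glycolipids, had folds of 1.03 and 1.19. Among the S1P receptors and exporters, 4 of 7 genes passed the filter, with 1 at 2-fold (25%, against 3.14% of all genes) and 2 at 1.5-fold (50%, against 11.6%). Their median of 0.48 was 0.18 with no filter. S1PR4 had 2.19 FPKM in the A375-VR library and 0.371 in the A375 library from 60 and 11 reads, and so passed the filter through the A375-VR library alone, and S1PR2 had 2.59 and 1.09 FPKM. S1PR1 went the other way, with 1.14 FPKM in the A375-VR library and 1.83 in the A375 library, a fold of 0.625 (0.482 to 0.806), and S1PR5 had a fold of 1.18 (0.916 to 1.53).

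The list of very-long-chain acyl-CoA elongation was mixed, with 5 of 9 genes higher (55.6%, against 60.3% of all genes). Of the 9, 3 were 1.5-fold higher (33.3%, against 11.6%), and the median was 0.17 (0.06 with the trimmed mean). ELOVL1, the most abundant of the list, had 51.2 FPKM in the A375-VR library and 54.4 in the A375 library, a fold of 0.940 (0.887 to 0.997). ELOVL6 was 2.45-fold higher (2.26 to 2.66), ELOVL4 2.05-fold (1.77 to 2.37) and HSD17B12 1.76-fold (1.58 to 1.96), while HACD3, a dehydratase of the cycle, had a fold of 0.753 (0.722 to 0.785). Among 14 other glycosphingolipid transferases 6 passed the filter, all with a higher level in the A375-VR library (against 60.3% of all genes, and 5 with the trimmed mean, where UGT8 was lower). Their median of 0.21 was 0.11 with the trimmed mean and 0.03 with no filter. Below the filter, ST6GALNAC5 had a fold of 0.497 (0.285 to 0.839), and ST6GALNAC6 had 0 reads in the A375-VR library and 13 in the A375 library. B3GNT5, which starts the lacto-series from lactosylceramide, had 1.87 FPKM in the A375-VR library and 0.607 in the A375 library, a fold of 3.08 (2.17 to 4.45), and passed the filter through the A375-VR library alone. GBGT1, a transferase of the globoside branch, had 4.30 FPKM in the A375-VR library and 3.31 in the A375 library, and the sialyltransferases ST3GAL2 and ST3GAL1 had folds of 1.21 and 1.16. The list of other sphingolipid enzymes, with 5 of 10 past the filter, had a median of 0.45 (0.22 with no filter). Its largest difference was that of SMPDL3A, at 3.05-fold (2.23 to 4.23), and a place in this list does not show that SMPDL3A acts on sphingolipids. ALDH3A2, which oxidises the aldehyde left by SGPL1, had 14.7 and 9.76 FPKM in the A375-VR and A375 libraries, SAMD8 had 5.19 and 3.54, and NEU3, a sialidase of gangliosides, had 2.79 and 2.59, which is lower in the A375-VR library with the trimmed mean.

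**Figure D5:**
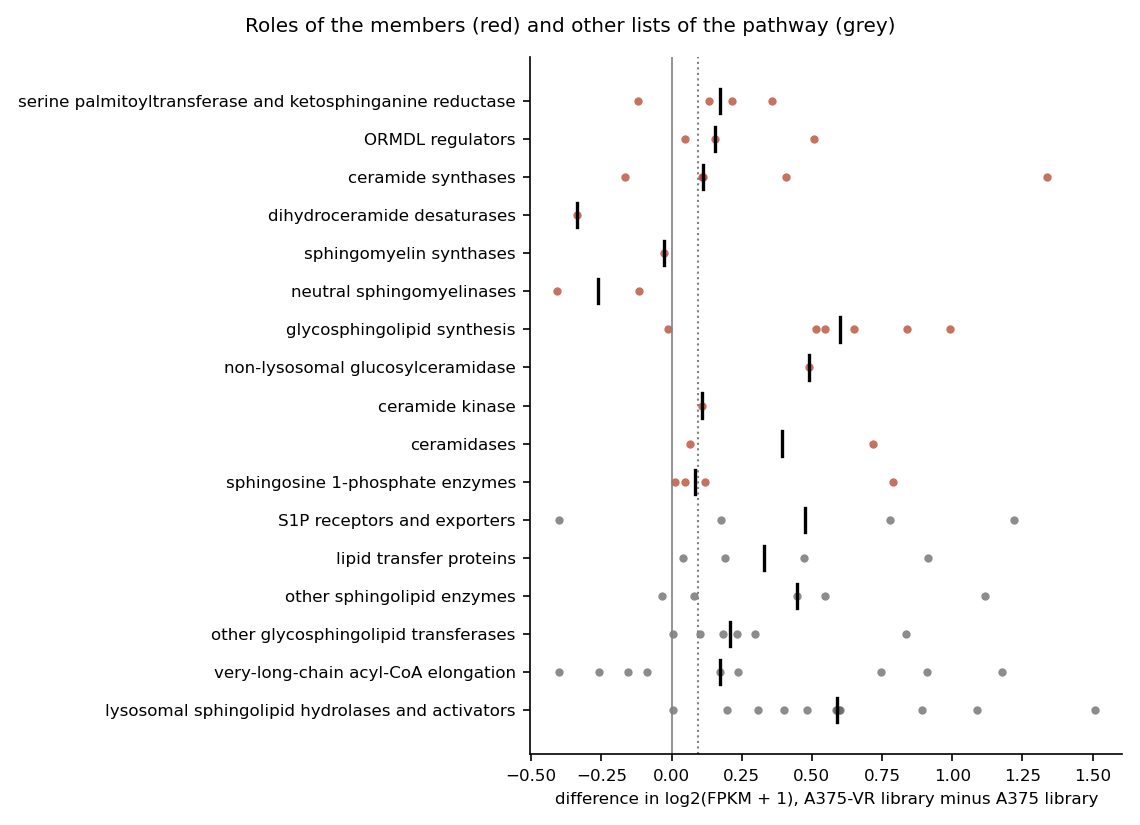
Difference in log2(FPKM + 1), A375-VR library minus A375 library, of each gene past the filter (points) by role among the 37 genes (red) and in 6 other lists of the pathway (grey), with black bars at list medians and a dotted line at the median of all genes, 0.10. The medians of lysosomal hydrolases and glycosphingolipid synthesis are 0.59 and 0.60.

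The labelled cell type was checked against marker genes. Of 8 melanocyte markers 3 passed the filter: SOX10 had 149.6 FPKM in the A375-VR library and 65.3 in the A375 library, S100B 12.6 and 3.72, and MITF 3.47 and 6.47. PMEL, MLANA, TYR, TYRP1 and DCT were under 1 FPKM, with TYR listed at 0 in both, so the pigment-cell markers of these cells were nearly absent. The summed level of the 8 was 166 FPKM in the A375-VR library and 75.8 in the A375 library. Markers of keratinocytes summed to 59.5 and 47.8 FPKM in the A375-VR and A375 libraries, mostly from KRT10 at 56.0 and 44.9, with KRT1 and DSG3 listed at 0. Of the fibroblast markers LUM alone passed the filter, with 4.89 and 2.99 FPKM, and endothelial markers summed to 2.07 and 0.568 and leukocyte markers to 1.61 and 0.0595, in the A375-VR and A375 libraries. The endothelial sum was mostly KDR, at 1.84 and 0.394 FPKM in the A375-VR and A375 libraries. No leukocyte marker passed the filter, and that sum came from LYZ (13 and 0 reads) and CD14 (11 and 1 reads). PTPRC and CD3E are listed at 0 in both. The part of these differences in the sphingolipid results was not tested, and fewer cells of a kind and less RNA per cell cannot be told apart in bulk RNA.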

How the data were processed

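Paired reads of 150 bp came from stranded mRNA libraries on a HiSeq 2000, and TopHat 1.3.3 placed them on GRCh37, per the labels of the series. How genes were counted, with which annotation, filters and strand setting, is not given in the sources used here. FPKM per gene is the unit the authors deposited. Groups follow the sample titles.

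From these, log2(FPKM + 1) differences and plain folds were computed in Python 3.11.15 with pandas 2.3.3 and scipy 1.17.1. The ratio of the library totals came from 274 genes with equal reads in both libraries. Its common factor was the one of 12 multiples tried that made most gene lengths equal to GENCODE 44 exon lengths (14.6% of 1500 genes, next 9.6%). Read numbers are the smallest that fit within a relative tolerance of 1e-09, so true reads can be multiples: for 13 of 35 genes the recovered length was under 70% of the annotated exons. The steps were tested on simulated data. Genes named with values were members 1.5-fold apart, up to 3 of each role, those given a family share and, of each other list, up to 4 with the largest difference. Other members, UGT8, GLA, ELOVL1, ST6GALNAC5, ST6GALNAC6, marker genes and genes overlapping members were named after their values were seen. The members and lists were chosen with earlier results of these data known. The alternatives were another pseudocount, other filters and 3 other scalings. GBA3, in 1 list, was not analysed here.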

Additional observations from a re-analysis of the deposited data

How the results depend on the processing

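No paired analysis was possible because each group has 1 library and no test was made. Direction held for the 6 genes 1.5-fold higher under every alternative that kept them, but this was no check of them. A pseudocount or a filter cannot change a direction. Scaling by the median ratio or the trimmed mean divides folds by 1.08 only, and the lowest fold of the 6 was 1.82 (B4GALT5). The number of genes 2-fold higher, 1 as deposited, was 3 with a pseudocount of 0.1 (CERS4, ACER2 and ST3GAL5), 3 after rescaling to a common sum of 1000000, and 0 with the filter at FPKM 5. That filter tests fewer genes, 19 in place of 30. The number 1.5-fold higher, 6 as deposited, was 2 with that filter (B4GALT5 and SPHK1), against 10.9% of all genes past it. It was between 5 and 8 under the other alternatives, and no gene was 1.5-fold lower under any of them. The median difference lay between 0.04 and 0.18. Of 169 single-gene values under an alternative, 18 lay outside the counting interval, taken with a pseudocount of 1. Sign changed in 9, all of genes under 1.5-fold. The 169 include 30 values with no filter and 19 with the filter at FPKM 5, which could do neither, since a filter leaves the difference of a gene as it is. Of 99 medians of the lists, 11 lay outside a range set by the median lower and median upper limit of the genes' intervals. That range is not a counting interval of the median. Among the 11 were the ceramide synthases at -0.03 with the filter at FPKM 5, and a filter also changes which genes a list holds. Of 18 differences in family share between the libraries, 0 moved by over 5 percentage points with a pseudocount of 1. Shares within a library moved further, as that of SGMS1 in the A375-VR library from 74.7% to 65.2%, and that of CERS2 there from 69.5% to 62.9%. Depth limits CERS4, ACER2 and the genes under 1 FPKM most.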
